A study of Drosophila melanogaster with 6 samples.

Results

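The glutathione S-transferase (Gst) genes of Drosophila melanogaster were examined in late lola-O mutant embryos. The locus lola encodes many isoforms of a BTB zinc-finger transcription factor. The members were all gene identifiers in the count files whose FlyBase symbol is Gst followed by a class letter (D, E, O, S, T or Z) and a number. There were 35 such genes among the 17559 identifiers, with 11 in class D, 14 in E, 3 in O, 1 in S, 4 in T and 2 in Z. The annotation gave each of them a coding sequence for a protein of 199 to 268 residues. The mutant group (3 samples) carried lola-O over the deficiency Df(2R)ED2076, and the control group (3 samples) had a wild-type chromosome in place of lola-O, also over Df(2R)ED2076, so the deficiency was common to both. Each sample was polyA RNA from a pool of 100 whole embryos at 20 to 22 hours after egg laying, although the protocol text, which is the same for all 6 samples, names only mutant embryos. Whether the pools of a group had separate parents or collections is not stated in the labels, so the p-values rest on a spread between samples that may be technical. The rest of the second chromosome, and the other chromosomes, may also differ between the groups. Their part and that of the lola-O mutation cannot be told apart.

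Glutathione S-transferases join the tripeptide glutathione to reactive or toxic compounds, which makes these easier to excrete, and some members also act as peroxidases or isomerases. The delta (D) and epsilon (E) classes are expanded in insects and are known for insecticide detoxification, and many of their genes lie in tandem clusters. The omega (O), sigma (S), theta (T) and zeta (Z) classes are shared with other animals. In flies, part of the family is induced through CncC, the counterpart of mammalian Nrf2, which is held in check by Keap1.

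Libraries held 16217213 to 22759638 counts. The Gst genes together took 0.290% to 0.3002% of the counts of the mutant libraries, against 0.194% to 0.198% of those of the control libraries. The annotation's lola identifier was not among those in the files. FBgn0005630, which from background knowledge is an older lola identifier but is not paired with a name in the annotation used, had 6807, 5817 and 6851 counts in the mutants, against 8695, 9341 and 7562 counts in the controls, and was called lower (log2 fold change -0.24, adjusted p = 2.73e-10 by edgeR). If it is lola, it sums over isoforms and so does not check the genotype. In bulk embryos, fewer cells that express a gene and less RNA per cell cannot be told apart.

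Of the 34 Gst genes that passed the low-count filter, 21 rose in the mutants, 3 fell and 10 did not pass edgeR's quasi-likelihood test at an adjusted p below 0.05. Over all 10312 tested genes, 39.7% were called by the same rule, 20.2% higher and 19.5% lower. Gst transcripts are short, and among the 1736 tested genes whose longest transcript is under 1000 bases 29.8% were called higher. The rises were steepest for GstE3, GstD7, GstD5 and GstE1, the 4 members with at least a 2-fold rise; across all tested genes 0.892% were called higher at this size. A rise of at least 25% was called for 15 members, against 5.29% of all tested genes. An equally large fall on the log2 scale was called for 1 member, GstE11, against 5.32% of all tested genes. The median log2 fold change (mutant over control) was 0.26 for the tested members and 0.0010 for all tested genes. Mutant and control libraries did not overlap for 25 of the 34 members, and for 47.8% of all tested genes. The member that failed the filter was GstO1, with 13, 1 and 17 counts in the mutants and 10, 8 and 7 counts in the controls, so that mutant 2 stood low and the groups overlapped.

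**Figure D1:**
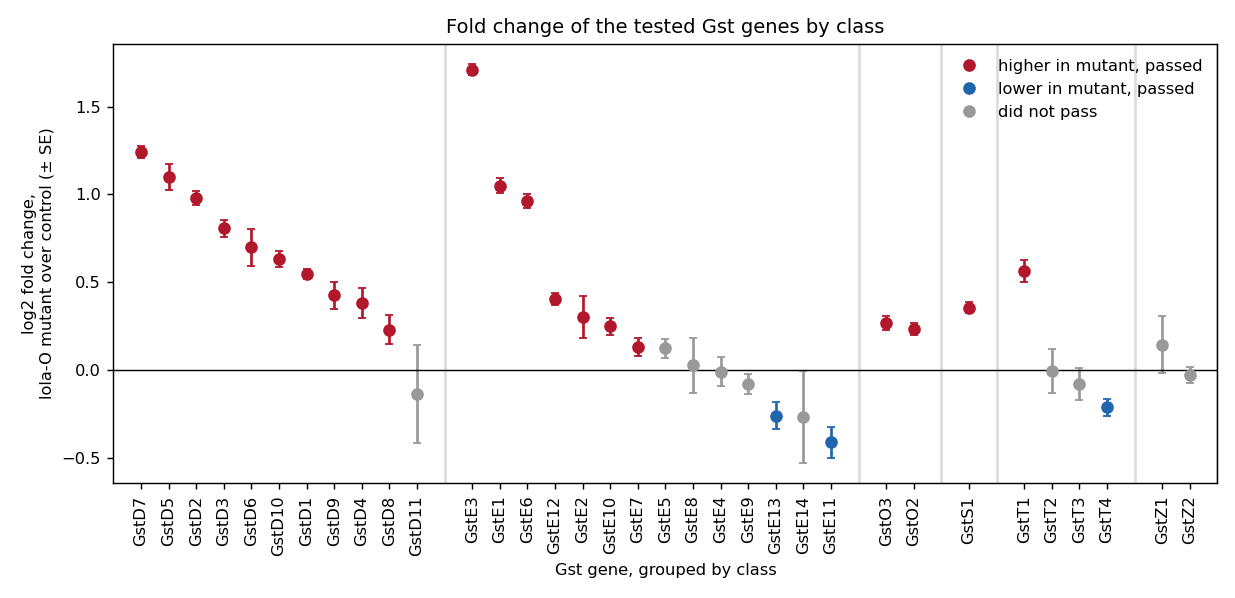
Log2 fold change of lola-O mutant over control for the 34 tested Gst genes, grouped by class and ordered by size within it; points are edgeR estimates and bars their standard errors, with colour giving the call at an adjusted p below 0.05. In class D, 10 of 11 genes were higher, whereas class E ran from -0.41 (GstE11) to 1.71 (GstE3).

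Levels are given as CPM, counts per 1000000 counts of TMM-scaled library size, with the libraries of each group in the order of their numbers. Genes within a Gst cluster are similar in sequence, and how reads shared by several genes were counted is not stated, so values of single members are uncertain to that extent. Summed over the family, the level was 2983, 2948 and 2991 CPM in the mutants, against 1967, 1951 and 1937 CPM in the controls. The ratio of the group means was 1.52, and every mutant library was above every control library. Class D summed to 1421 ± 7.24 CPM across mutants, against 873 ± 9.82 CPM across controls, a ratio of 1.63, and class E to 912 ± 13.7 and 529 ± 9.54 CPM, a ratio of 1.72 (SD, n = 3 each). The ratios were 1.19 for class O and 1.28 for class S. Class T, at 101 ± 5.10 CPM across mutants, against 99.8 ± 1.95 CPM across controls, and class Z, at 58.7 ± 3.66 and 59.1 ± 2.29 CPM (SD, n = 3 each), differed by less than the spread between libraries. Of the difference of 1023 CPM between the group means, GstD1 held 25.1%, GstE3 21.0%, GstD7 14.5%, GstE1 7.55% and GstD2 5.70%, 73.9% together.

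**Figure D2:**
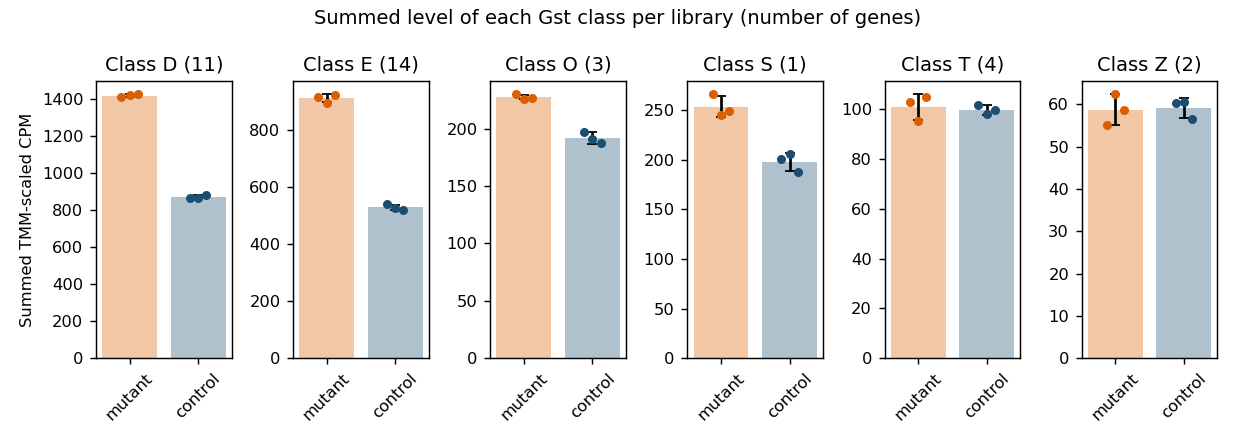
Summed TMM-scaled CPM of each Gst class in each library; bars are group means of 3 libraries, error bars SD and points single libraries, each panel with its own axis from 0. Classes D, E, O and S show mutant libraries above all control libraries, while those of T and Z overlap.

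The delta genes rose almost as a block. All 11 lie within 20.8 kb of 3R (BDGP6.54, 12364776 to 12385624), and 10 of them rose while none fell. The median log2 fold change of the class was 0.63. GstD1 (FBgn0001149), whose product is known for breaking down the insecticide DDT, had 819, 806 and 819.8 CPM across mutants, against 546, 556 and 571 CPM across controls (log2 fold change 0.55 ± 0.027 SE, adjusted p = 4.73e-28 by edgeR). The groups lay well apart, with every mutant library above every control.

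GstD7 (FBgn0010043) showed the steepest rise of the class. It had 252, 262 and 258 CPM across mutants, against 107, 107 and 113 CPM across controls, which gave 1.24 ± 0.033 (SE) as log2 fold change and an adjusted p of 3.43e-43 by edgeR. GstD5 had 26.8, 25.3 and 27.4 CPM across mutants, against 12.1, 13.4 and 11.6 CPM across controls, which gave 1.10 ± 0.073 (SE) as log2 fold change and an adjusted p of 5.18e-21 by edgeR. GstD2, whose product is known to conjugate isothiocyanates from food plants, had 117, 121 and 115.2 CPM across mutants, against 62.2, 60.5 and 56.0 CPM across controls (log2 fold change 0.98 ± 0.040 SE, adjusted p = 3.05e-32 by edgeR). All mutant libraries stood well above all control libraries for these 3 genes.

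A middle group of delta genes rose by less. GstD3 had 59.5, 62.1 and 66.6 CPM across mutants, against 36.3, 35.3 and 35.9 CPM across controls (log2 fold change 0.81, edgeR adjusted p = 8.56e-23). It has the shortest coding sequence of the family, 199 residues. GstD6 had 10.8, 10.6 and 10.3 CPM across mutants, against 6.34, 6.17 and 7.18 CPM across controls (log2 fold change 0.70, edgeR adjusted p = 1.17e-07). GstD10 had 77.6, 83.8 and 79.3 CPM across mutants, against 55.4, 50.8 and 48.3 CPM across controls (log2 fold change 0.63, edgeR adjusted p = 1.54e-19). The groups did not overlap for any of these 3 genes.

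GstD9 and GstD4 followed. GstD9 had 21.4, 23.0 and 20.8 CPM across mutants, against 17.5, 14.2 and 16.9 CPM across controls (log2 fold change 0.43, edgeR adjusted p = 2.95e-06). GstD4 had 13.9, 13.2 and 14.9 CPM across mutants, against 10.6, 10.9 and 10.8 CPM across controls (log2 fold change 0.38, edgeR adjusted p = 2.33e-04). Both rises were clear of the spread between libraries.

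Near the end of the cluster, GstD8 rose by only 0.23 on the log2 scale (14.5 ± 0.479 CPM across mutants, against 12.4 ± 0.444 CPM across controls, SD, n = 3 each; edgeR adjusted p = 0.0214). It did not pass without mutant 3 (adjusted p = 0.0939) or control 2 (0.0871), or with DESeq2 (0.0909); over all alternatives its adjusted p ranged from 0.0182 to 0.216. GstD11, the last gene and the only delta member with introns in its coding sequence, was low. It had 33, 20 and 15 counts in the mutants and 29, 29 and 25 counts in the controls. It did not pass (log2 fold change -0.13 ± 0.28 SE, adjusted p = 0.745 by edgeR).

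Neighbouring delta genes differed in how far they moved. Ratios of raw counts within a library, which do not depend on scaling between libraries, were taken for pairs chosen after their fold changes were seen, so they are a description. GstD7 had 17.9, 18.3 and 17.2 counts for each count of its neighbour GstD8 in the mutants, against 8.45, 9.03 and 8.96 in the controls. GstD5 had 1.92, 1.92 and 1.84 counts for each count of GstD4 in the mutants, against 1.14, 1.22 and 1.07 in the controls. In both pairs the mutant ratios lay above all control ratios. The genes are 752 and 908 bases apart.

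**Figure D3:**
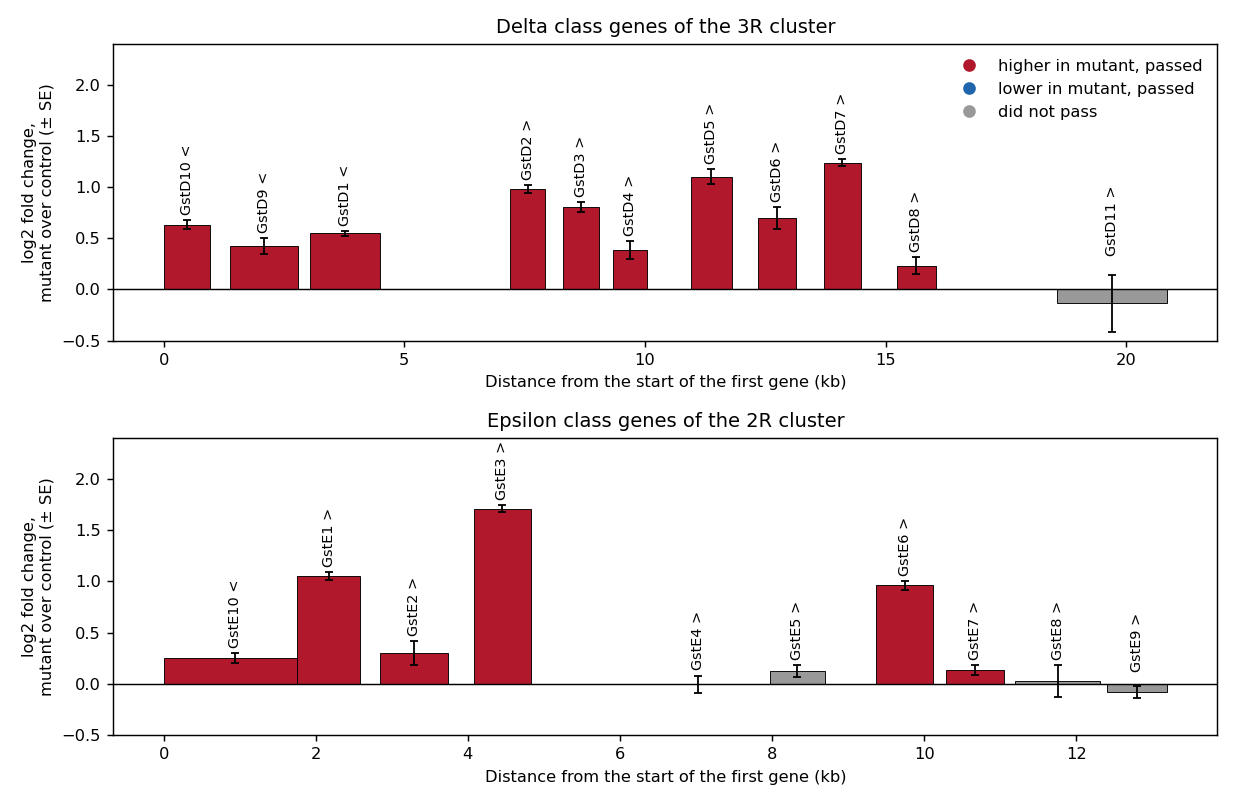
Log2 fold change of mutant over control along the delta cluster on 3R and the main epsilon cluster on 2R; each bar spans a gene, error bars are SE, the x axis is the distance from the first gene's start in kb, and > or < gives the strand. In the delta cluster 10 of 11 bars are higher in the mutants, while in the epsilon cluster GstE1, GstE3 and GstE6 (1.05, 1.71 and 0.96) stand above neighbours of 0.30 or less.

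The epsilon class was uneven. Of 14 tested genes, 7 rose, 2 fell and 5 did not pass, with a median log2 fold change of 0.13. Of these, 10 genes, GstE1 to GstE10, lie within 13.2 kb of 2R (18396638 to 18409835). There 6 rose, 4 did not pass and none fell, with the largest rises for GstE3, GstE1 and GstE6. GstE3 (FBgn0063497) had 310.2, 306 and 312 CPM across mutants, against 94.2, 92.6 and 97.2 CPM across controls, which gave 1.71 ± 0.033 (SE) as log2 fold change and an adjusted p of 2.42e-51 by edgeR. It had the smallest p of all 10312 tested genes, and its mutant libraries were at 3.27 times the control level.

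GstE1 (FBgn0034335) had 152, 141 and 156 CPM across mutants, against 77.1, 67.4 and 72.7 CPM across controls (log2 fold change 1.05 ± 0.041 SE, adjusted p = 2.35e-25 by edgeR). GstE6 (FBgn0063494) had 101, 98.4 and 102 CPM across mutants, against 50.7, 54.5 and 49.4 CPM across controls (log2 fold change 0.96 ± 0.041 SE, adjusted p = 7.60e-31 by edgeR). For both genes the mutant libraries lay above the control libraries, with no overlap. Exons of GstE1 overlap those of GstE10 on the opposite strand over 20 bases.

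The other genes of this cluster that passed moved little. GstE10 (49.1 ± 2.32 CPM across mutants, against 41.5 ± 0.988 CPM across controls) rose by 0.25 on the log2 scale, with an adjusted p of 2.87e-05 by edgeR. GstE2 (7.96 ± 1.01 and 6.36 ± 0.824 CPM) rose by 0.30 (adjusted p = 0.0385) and GstE7 (46.4 ± 0.935 and 42.2 ± 2.52 CPM) by 0.13 (adjusted p = 0.0296; SD, n = 3 each). The calls of GstE2 and GstE7 were lost when any of several single libraries was left out. GstE2 lost its call without mutant 1, mutant 2 or control 3 (adjusted p of 0.0600, 0.225 and 0.192; 0.0224 to 0.225 over all alternatives). GstE7 lost its call without mutant 2, mutant 3, control 1 or control 3 (0.0853, 0.0790, 0.101 and 0.135; 0.00556 to 0.600 over all alternatives). Neither passed DESeq2 (0.116 and 0.105).

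The remaining members of the 2R cluster did not pass. The log2 fold change was 0.12 for GstE5 (adjusted p = 0.0783 by edgeR, and 0.0486 without control 1) and -0.079 for GstE9 (adjusted p = 0.303, and 0.0439 without control 3). It was 0.027 for GstE8 (adjusted p = 0.913) and -0.0080 for GstE4 (adjusted p = 0.951). GstE4 was at 14.9, 13.7 and 13.4 CPM across mutants, against 14.7, 14.1 and 13.4 CPM across controls, so the groups overlapped fully. It is the next gene after GstE3, with 1780 bases between them.

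Count ratios within a library, for pairs chosen in the same way, showed the contrast between neighbours. GstE3 had 20.8, 22.4 and 23.2 counts for each count of GstE4 in the mutants, against 6.40, 6.56 and 7.28 in the controls. GstE6 had 2.22, 2.09 and 2.19 counts for each count of GstE7 in the mutants, against 1.22, 1.21 and 1.23 in the controls. GstE6 and GstE7 are 162 bases apart on the same strand, and the ratios of the groups did not overlap.

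The 4 epsilon genes elsewhere on 2R went in different directions. GstE12 had 137, 136 and 139 CPM across mutants, against 105, 103 and 104 CPM across controls and rose by 0.40 ± 0.034 (SE) on the log2 scale, with an adjusted p of 4.80e-16 by edgeR. GstE11 had 11.45, 11.2 and 9.54 CPM across mutants, against 14.3, 14.7 and 13.7 CPM across controls, the largest fall of the family at -0.41 (SE 0.089, edgeR adjusted p = 9.90e-05). It was below every control in each mutant library. GstE13 fell by 0.26 (16.0 ± 0.424 CPM across mutants, against 19.1 ± 1.503 CPM across controls, SD, n = 3 each; edgeR adjusted p = 0.00371), and its call was lost without control 1 (adjusted p = 0.0731; 1.49e-04 to 0.0731 over all alternatives).

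GstE14 is also known as Noppera-bo and acts in the prothoracic gland in the making of ecdysone, the moulting hormone. It had 33, 13 and 28 counts in the mutants and 34, 40 and 25 counts in the controls and did not pass (log2 fold change -0.27 ± 0.26 SE, adjusted p = 0.443 by edgeR). Mutant 2 was the lowest library, and the groups overlapped.

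The 2 tested omega genes both rose. These enzymes are known for thiol transfer and dehydroascorbate reduction. GstO3 had 83.1, 86.1 and 85.9 CPM across mutants, against 73.1, 69.3 and 69.4 CPM across controls (log2 fold change 0.27 ± 0.040 SE, adjusted p = 6.74e-08 by edgeR). GstO2 had 142 ± 3.50 CPM across mutants, against 121 ± 3.23 CPM across controls (SD, n = 3 each; log2 fold change 0.23, edgeR adjusted p = 4.98e-08). The groups did not overlap for either gene.

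GstS1, the only sigma member, is known as an abundant protein of adult flight muscle that conjugates products of lipid peroxidation. It had 266, 245 and 249 CPM across mutants, against 200.3, 206 and 188 CPM across controls, which gave 0.36 ± 0.033 (SE) as log2 fold change and an adjusted p of 3.77e-14 by edgeR. It rose while the summed level of the muscle markers was lower in the mutants (25950 to 26400 CPM, against 29340 to 29470 CPM in the controls), with 1 of 5 tested markers higher and 3 lower (none higher and 4 lower with a correction for transcript length). Among all tested genes, 20.2% were called higher and 19.5% lower (16.7% and 14.9% with that correction). The part of muscle in the level of GstS1 was not tested.

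The theta genes split. GstT1 had 32.2, 29.4 and 32.1 CPM across mutants, against 22.2, 20.9 and 20.3 CPM across controls and rose by 0.57 ± 0.063 (SE) on the log2 scale, with an adjusted p of 1.03e-11 by edgeR. GstT4 had 50.4, 48.3 and 54.15 CPM across mutants, against 59.9, 57.1 and 60.9 CPM across controls, a fall of 0.21 (SE 0.047, edgeR adjusted p = 1.43e-04). GstT2, the neighbour of GstT1 on 2R, had 174, 101 and 153 counts in the mutants and 164, 207 and 108 counts in the controls and did not pass (log2 fold change -0.0071, adjusted p = 0.972). Its exons overlap CG12926 on the opposite strand over 25.1% of their length. GstT3 did not pass either (-0.080, adjusted p = 0.519).

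Neither zeta gene passed the test. Zeta enzymes isomerise maleylacetoacetate in the breakdown of tyrosine. GstZ2 had 51.4, 57.6 and 55.0 CPM across mutants, against 56.4, 57.1 and 53.0 CPM across controls (log2 fold change -0.028 ± 0.047 SE, adjusted p = 0.678 by edgeR). GstZ1 was at 4.01 ± 0.702 CPM across mutants, against 3.58 ± 0.344 CPM across controls (SD, n = 3 each; log2 fold change 0.14, SE 0.16, adjusted p = 0.511). The groups overlapped for both.

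**Figure D4:**
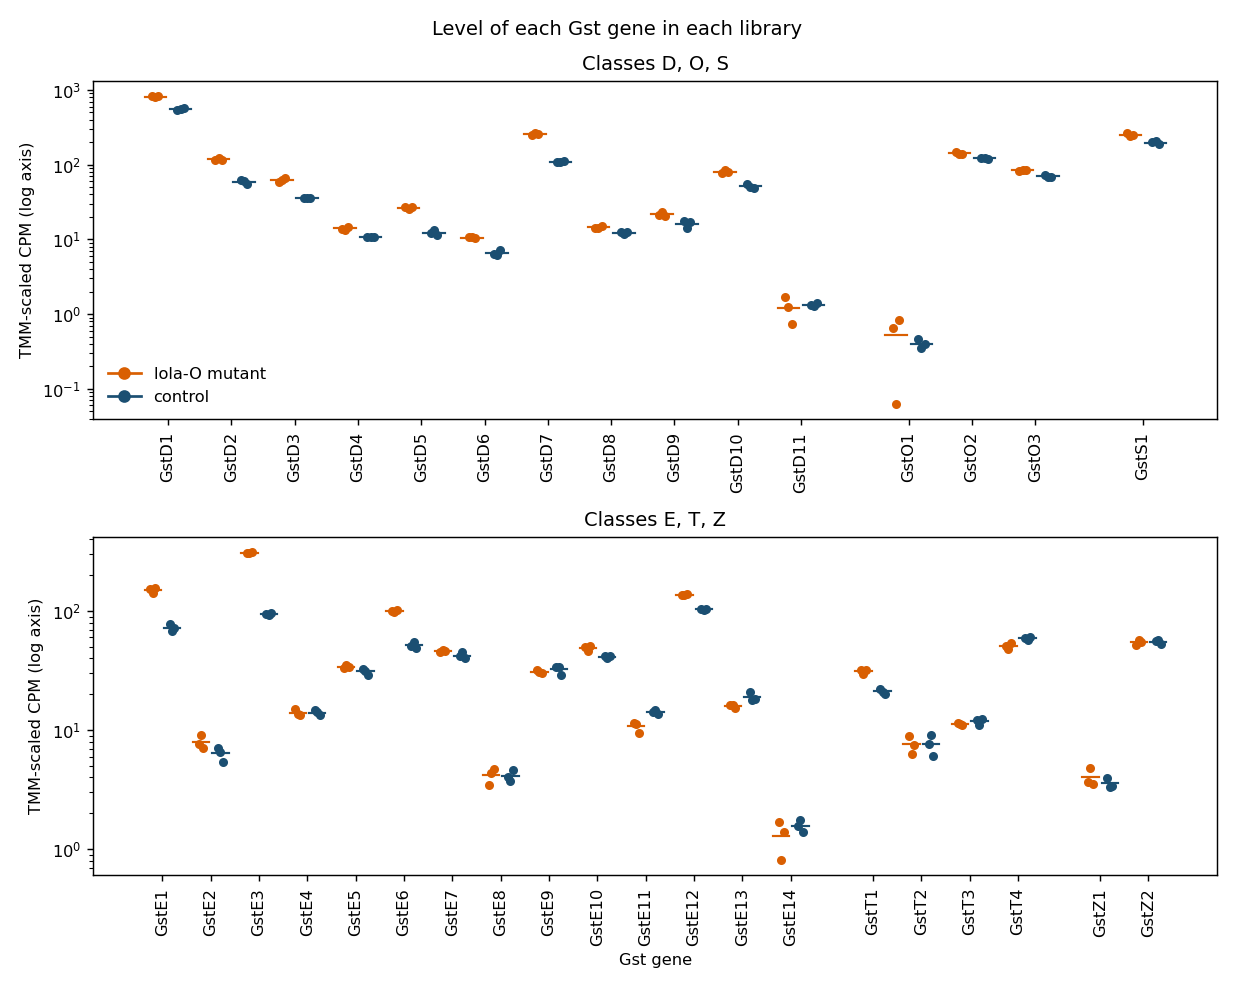
TMM-scaled CPM of each Gst gene in each library on a log axis, mutants left and controls right of each label; points are libraries and lines group means. GstD1 averages 815 CPM across mutants, against 558 CPM across controls, and GstO1, GstD11 and GstE14 lie below 2 CPM in every library, with GstO1 lowest in mutant 2 (0.063 CPM).

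Levels between genes were compared per kilobase of exon (CPM per kb). GstD1 led in both groups, with 967 ± 9.26 CPM per kb in the mutants and 662 ± 15.2 CPM per kb in the controls (SD, n = 3 each). GstE3 came second in the mutants, at 410.0 ± 4.12 CPM per kb, and ranked 3 in the controls, at 125 ± 3.09 CPM per kb. It changed places with GstD7, which had 340.2 ± 6.64 CPM per kb in the mutants and 144 ± 4.24 CPM per kb in the controls. GstE1 followed in both groups, at 180.1 ± 9.41 CPM per kb in the mutants and 87.1 ± 5.88 CPM per kb in the controls. In the controls GstE1 and GstS1 (87.0 ± 4.04 CPM per kb) did not differ beyond their spread, whereas in the mutants GstE1 stood above GstS1 (111 ± 4.83 CPM per kb). The lowest were GstE14, GstD11 and GstO1, ranked 33 to 35 of the 35 in both groups.

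Members with higher levels tended to have larger positive fold changes. Spearman's rho between the mean CPM per kb over both groups and the log2 fold change was 0.64 over the 34 tested members and 0.76 over the 14 epsilon members. The members share libraries, and the mutant values enter both measures, so these are descriptions only. GstD5 stood off this relation, with a level of 31.5 ± 1.28 CPM per kb in the mutants and 14.7 ± 1.10 CPM per kb in the controls and a log2 fold change of 1.10.

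The members also differed in gene structure and position. Of the 20 genes whose coding sequence lies in 1 exon, namely GstD1 to GstD10 and GstE1 to GstE10, 16 rose and none fell, with a median log2 fold change of 0.49. Of the 14 tested genes with coding introns, 5 rose (GstE12, GstO2, GstO3, GstS1 and GstT1) and 3 fell (GstE11, GstE13 and GstT4), with a median of -0.018. With a correction for transcript length, 13 of the 20 were higher and 1 lower, with a median of 0.39. Of the 14, 5 were higher and 3 lower, with a median of -0.074. Among all tested genes, 16.7% were then called higher and 14.9% lower. The split by coding introns largely repeats the division between the clusters and the rest. By chromosome arm, 9 of 17 members on 2R, 10 of 13 on 3R and both tested members on 3L rose, and neither of the 2 on X did; over all tested genes the share called higher was 21.0% on 2R, 20.8% on 3R, 19.0% on 3L and 19.5% on X.

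The longest transcript had a median of 878.5 bases over the tested members, against 2001 bases over the tested genes with an annotated length. Across the genome the median log2 fold change was 0.11 for the 1736 tested genes with transcripts under 1000 bases and -0.091 for the 2994 with transcripts over 3000 bases. With a correction for transcript length, 18 members were higher and 4 lower, against 16.7% and 14.9% of all tested genes. The median log2 fold change of the members was then 0.18, with 9 of 11 delta genes higher and none lower, and 5 of 14 epsilon genes higher and 3 lower. GstE3, GstD7, GstD5, GstE1, GstD2 and GstE6 kept values of 1.62, 1.15, 1.01, 0.96, 0.89 and 0.87. The calls of GstD8, GstE2 and GstE7 were lost (edgeR adjusted p of 0.216, 0.182 and 0.600), and GstE9 was called lower, at -0.17 (adjusted p = 0.0166).

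Genes that make, use or recycle glutathione, and those around CncC, were examined as lists. Of 33 listed genes outside the Gst family 32 had an identifier in the files and 24 were tested; 14 rose, 5 fell and 5 did not pass. Over all tested genes 20.2% were called higher and 19.5% lower, so the share of these genes that fell was near the background. Gclc, the catalytic subunit of the enzyme that limits glutathione synthesis, had 249.9 ± 5.28 CPM across mutants, against 200.5 ± 3.11 CPM across controls (SD, n = 3 each; log2 fold change 0.32, edgeR adjusted p = 9.13e-14). Its modifier subunit Gclm (0.078, adjusted p = 0.0783) and the glutathione-degrading Ggt-1 (0.12, adjusted p = 0.0705) did not pass. The glutathione synthetase genes Gss1 and Gss2 are similar copies and failed the filter, with means of 0.109 and 0.0708 CPM across mutants, against 0.147 and 0.0301 CPM across controls.

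Among other genes listed as using glutathione or sharing the transferase fold, 6 of 8 tested rose. Whether each of them uses glutathione was not tested. They were Fdh, the glutathione-dependent formaldehyde dehydrogenase (0.43), the peroxidase gene Gtpx (0.29), the microsomal transferase Mgstl (0.18), the glutaredoxin Grx1 (0.17), the translation elongation subunit eEF1gamma (0.12) and the chloride channel protein Clic (0.080). With the transcript-length correction Fdh, Gtpx and eEF1gamma still passed and the other 3 did not. gfzf (-0.037) and Gdap1 (-0.11) did not pass, and Gdap1 was called lower with that correction. Flies lack glutathione reductase and reduce glutathione through thioredoxin; Trxr1, the thioredoxin reductase, rose by 0.28 and Trx2 by 0.15.

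The regulators did not move together. Keap1 had 65.4 ± 0.542 CPM across mutants, against 42.5 ± 2.66 CPM across controls (SD, n = 3 each), which gave 0.62 ± 0.047 (SE) as log2 fold change and an adjusted p of 2.26e-18 by edgeR. maf-S, the small Maf partner of CncC, fell by 0.23 (adjusted p = 7.22e-05). The cnc locus, which encodes CncC and other isoforms, did not pass (-0.035, adjusted p = 0.382), and it was called higher with the transcript-length correction (0.097). Hr96, a nuclear receptor of the xenobiotic response, rose by 0.20. The bromodomain gene fs(1)h fell by 0.099, but turned to a rise of 0.077 with the transcript-length correction.

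Genes outside the family that are known to be induced through CncC were split 3 to 3. Cyp6a2 had 278 ± 8.27 CPM across mutants, against 108 ± 4.18 CPM across controls (SD, n = 3 each; log2 fold change 1.37, SE 0.033, edgeR adjusted p = 4.70e-45). The juvenile hormone epoxide hydrolase genes Jheh2 and Jheh1 rose by 0.85 and 0.75. Cyp6a8 fell by 0.81, Cyp12d1-p by 1.73 and ref(2)P, the fly counterpart of p62, by 0.40 on the log2 scale. Cyp12d1-p was low, at 0.495 ± 0.279 CPM across mutants, against 1.66 ± 0.131 CPM across controls (SD, n = 3 each), and has a near-identical copy.

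**Figure D5:**
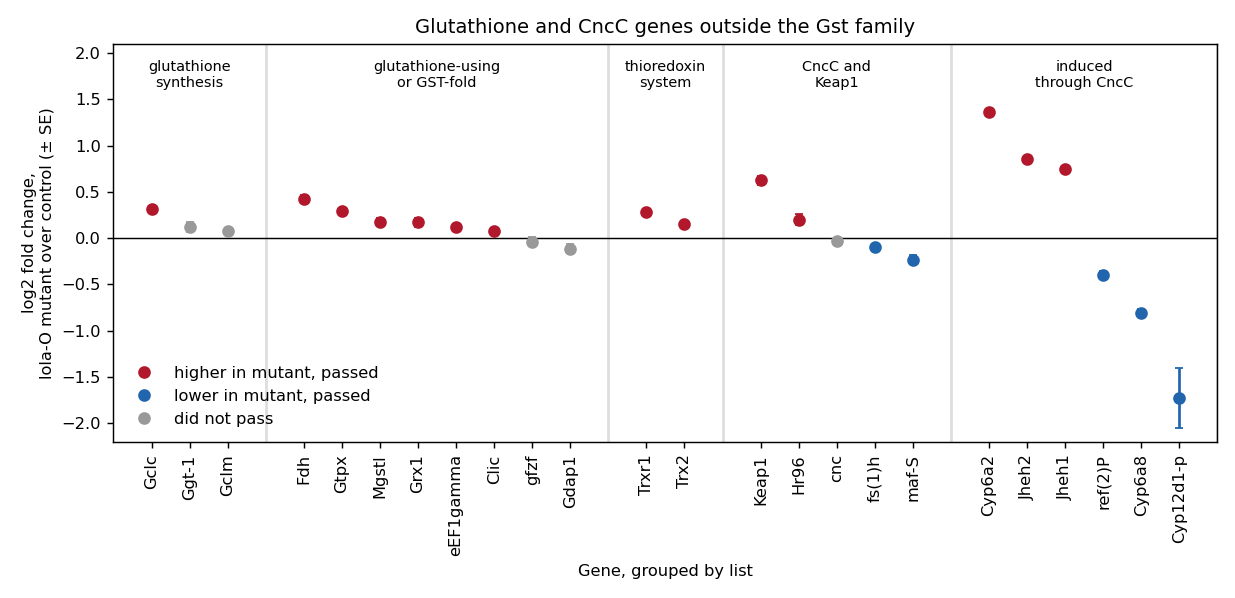
Log2 fold change of mutant over control for 24 tested genes of 5 lists outside the Gst family; points are edgeR estimates, bars SE, and colour gives the call at an adjusted p below 0.05. Cyp6a2 (1.37) and Cyp12d1-p (-1.73) mark the extremes, and Keap1 (0.62) stands above the other regulators.

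Summed levels of the marker lists were lower in the mutants for midgut, Malpighian tubule, fat body, hemocytes, muscle and neurons, and higher for oenocytes. Among all tested genes, 20.2% were called higher and 19.5% lower, or 16.7% and 14.9% with the correction for transcript length. The summed level of 7 midgut markers was 2017 to 2065 CPM across mutants, against 2112 to 2132 CPM across controls, with 2 genes higher and 4 lower (3 and 4 with the correction for transcript length); Mal-A1 rose by 0.82 and alphaTry fell by 0.73. The 6 Malpighian tubule markers summed to 172 to 179 CPM across mutants, against 190.5 to 200.5 CPM across controls, with 2 of 4 tested lower (3 with the correction). The fat body list summed to 3786 to 3951 CPM across mutants, against 4238 to 4291 CPM across controls, almost all of it from apolpp and Apoltp, since Fbp1, Fbp2, Lsp1alpha and Lsp2 failed the filter. Both apolpp and Apoltp fell, but neither fall was kept with the transcript-length correction, where apolpp was called higher, by 0.057, and Apoltp did not pass (-0.039, adjusted p = 0.284). Hemocyte markers summed to 263 to 267 CPM across mutants, against 297 to 305 CPM across controls, with 3 of 6 lower. With the correction NimC1 and He were lower, and Hml (-0.067, adjusted p = 0.133) and Pxn (adjusted p = 0.988), which hold most of the sum, did not pass. The 3 oenocyte markers summed to 184 to 187 CPM across mutants, against 167 to 180.5 CPM across controls, with spidey higher; with the correction spidey did not pass and FASN2 was higher. Neuron markers had 1240 to 1312 CPM across mutants, against 1347 to 1380 CPM across controls, with 4 of 5 lower, but 1 higher and 1 lower with the transcript-length correction. Ranges overlapped for the remaining lists, with glia markers at 556 to 564 CPM across mutants, against 559.5 to 563 CPM across controls (2 of 5 higher and 1 lower, but 1 higher and 2 lower with the correction), tracheal markers at 670.4 to 674 and 658 to 687 CPM (1 of 3 lower, none with the correction), and prothoracic gland markers at 12.2 to 14.0 and 10.3 to 13.3 CPM (neither of 2 tested passed). FASN3 and KFase (oenocyte), wupA (muscle), btl (trachea) and nvd (prothoracic gland) were also listed but could not be matched to an identifier in the files. No matched marker was at 0 in all libraries, and the part of these tissues in the Gst values was not tested.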

How the data were processed

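PolyA RNA of 6 samples was sequenced, and samples were grouped by title and genotype, because the descriptions call all 3 controls replicate 1 and the extraction protocol names mutant embryos for all 6 samples, controls included. The deposited values are raw read counts per FlyBase gene identifier, made by the authors with STAR 2.5.2b, Subread 1.5.1, SAMtools 1.3.1, bedtools 2.25.0 and build BDGP6, per the submitters' processing notes. What each tool did, which strand was counted and how multiply mapped reads were treated is not stated in those notes or the labels, so the division of reads among similar Gst genes, and among genes that overlap, is uncertain. Exons of GstE1 and GstE10, GstE9, GstE12, GstE13, GstO2 and GstT2 overlap a gene on the opposite strand.

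Symbols, positions and lengths came from Ensembl (BDGP6.54), which matched 17253 of 17559 identifiers; the unmatched 306 held 4.37% to 4.49% of counts. A change of at least 25% that passed the test (or as large a fall on the log2 scale), or the highest level per kilobase of its class, decided for which members values of every sample are given. Outside this rule, GstE4 was shown beside its neighbour GstE3, and GstO1, GstD11, GstE14 and GstT2 were given by their counts. Members, lists and tests were chosen with earlier results of these data known.

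The test was the robust quasi-likelihood F-test of edgeR 4.0.16 in R 4.3.3 on these counts (TMM scaling, filterByExpr, Benjamini-Hochberg over 10312 genes). Standard errors are the log2 fold change over the square root of F. CPM are TMM-scaled. A count of 0 would allow up to 3 counts, or 0.132 to 0.185 CPM of the library total without TMM scaling, for counting error only. All replicate pairs differed by more than sampling noise (chi-square over its degrees of freedom was 1.94 to 6.14, for genes that reached 100 counts in the pair). The main edgeR pipeline was tested on simulated counts with known changes, and the alternatives were not. Alternatives were RLE and upper-quartile scaling, 2 other filters, DESeq2 1.42.0, limma-voom (limma 3.58.1), a block on replicate number, removal of the 20 most abundant genes, each sample left out in turn, and a transcript-length correction (a lowess on log2 length in each sample, as an offset).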

Additional observations from a re-analysis of the deposited data

How the results depend on the processing

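Of the 24 Gst calls, 20 kept direction and call under all 15 alternatives; GstD8, GstE2, GstE7 and GstE13 did not, as given above. The counts of Gst genes higher and lower stayed within 1.5 times of 21 and 3 in every alternative, from 18 (DESeq2 and transcript-length correction) to 21 higher and from 2 (without control 1) to 4 lower. The median log2 fold change of the members was 0.33 with a filter of 5 CPM in 3 samples, which removes low members, 0.18 with the transcript-length correction, and 0.25 to 0.29 with 1 sample left out. Among members that did not pass, GstE8 turned to -0.050 with the transcript-length correction and GstT2 to 0.0065 with the replicate block. With 1 sample left out, GstD11 ranged from -0.46 to 0.15, GstE4 from -0.058 to 0.027, GstE8 from -0.080 to 0.15, GstT2 from -0.13 to 0.16 and GstZ2 from -0.062 to 0.015; the cause was not tested. Samples with the same number did not deviate together (correlations of 0.023, -0.028 and 0.043). With 3 libraries in each group, these values cannot exclude that such samples shared a collection or preparation. With the replicate block 2083 genes were higher and 1994 lower, against 2087 and 2006 without it. Of the Gst genes, 21 were higher and 3 lower with the block. Depth limits GstO1, GstD11, GstE14, GstE8 and GstZ1 most, all below 5 CPM in both groups.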
